A study of Mus musculus with 35 samples.

Results

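Ribosomal protein genes encode the proteins of the cytosolic ribosome, and 81 of them were followed in interscapular brown adipose tissue (iBAT) of mice during 5 days of cold. They were the protein-coding genes whose symbol is Rpl or Rps with a number and an optional letter, x or l, together with Rplp0, Rplp1, Rplp2 and Rpsa, out of 55421 Ensembl genes in the table. There were 47 large-subunit genes, 3 lateral-stalk genes and 31 small-subunit genes. The symbol rule leaves out, among others, Fau and Rack1, whose products are part of the ribosome, as well as Rps3a1, Rpl22l1 and Rpl7l1, and these are described separately.

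The mice were C57BL/6J males of 9 to 10 weeks. Controls stayed at the colony temperature of 24 °C, and the other groups were kept at 6 °C for 6 hours or for 1, 2, 3, 4 or 5 days, with 5 mice in each of the 7 groups. The cold mice were housed singly and without nesting material, so temperature and housing cannot be told apart. RNA was taken from a whole iBAT pad of each mouse, and 250 ng went into a 3′ end library (QuantSeq), in which each transcript gives about a single read whatever its length.

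A ribosome is made of a small subunit, which reads the mRNA, and a large subunit, which joins amino acids. Each subunit is an assembly of ribosomal RNA and proteins, most of which are needed in a single copy per ribosome. Their mRNAs are among the most abundant in most cells, and many begin with a terminal oligopyrimidine (TOP) tract, a C followed by a run of C and T, through which mTORC1 and LARP1 control their translation. In brown adipose tissue, cold drives heat production through UCP1 and later growth of the tissue.

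The libraries held 3846016 to 6047247 counts, so 1 read was worth 0.165 to 0.26 CPM, the counts scaled to library size. Mitochondrial genes took 33.6% to 46.2% of the counts, and Gm42418, a locus that overlaps ribosomal RNA sequence, took 7.81% to 16.3%. The tissue label was checked against 8 brown adipocyte markers, whose summed level was 15145 to 19498 CPM in controls and 16890 to 21008 CPM after 5 days. At an adjusted p below 0.05, 1 of the 8 was higher and 3 were lower after 6 hours, with a median log2 fold change of -0.09. After 5 days 2 were higher and 2 lower. Ucp1, the marker that was higher after 6 hours, rose by 1.90 on the log2 scale (edgeR quasi-likelihood test, adjusted p = 1.8e-05). In whole tissue, fewer cells of a type and less RNA per cell cannot be told apart.

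The starts of several of these genes carry the pyrimidine run, and windows of some of the genes that the results below turn on are shown, with and without the tract, to let it be seen. Of the 81 genes, 61 had a start window in the RefSeq table (GRCm38.p6), which spans 250 bases before and 50 bases after each annotated start. A C followed by at least 5 further C or T, beginning within 20 bases of an annotated start and not preceded by a C or T, was found in 32 of the 61 (52.5%) and in 27.3% of 27025 genes with a window. The letters CCGGAAG, the core of an ETS-family site, were found on either strand of the 300 bases in 41.0% of the 61 and in 9.9% of all genes. AAGATGG, the core of a YY1 site, was found in 14.8% and 7.3%. RefSeq starts may lie some bases away from the main start in this tissue. In the 30-base windows below, 15 bases precede the start, and capitals mark the tract.

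Rpl15 (chr14:18270972-18271001, minus strand): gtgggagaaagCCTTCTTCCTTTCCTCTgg
Rpl35 (chr2:39005117-39005146, minus strand): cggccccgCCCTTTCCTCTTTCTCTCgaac
Rpl13a (chr7:45128731-45128760, minus strand): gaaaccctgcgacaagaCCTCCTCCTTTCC
Rps18 (chr17:33955651-33955680, minus strand): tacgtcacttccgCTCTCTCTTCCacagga
Rps27 (chr3:90213634-90213663, minus strand): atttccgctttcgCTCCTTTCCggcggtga
Rpl39l (chr16:10170213-10170242, plus strand): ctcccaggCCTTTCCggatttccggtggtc
Rpl9 (chr5:65391417-65391446, minus strand): acgcagggccctgacggattacaagaacgt
Rplp0 (chr5:115559452-115559481, plus strand): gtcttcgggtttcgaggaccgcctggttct
Rps4x (chrX:102189377-102189406, minus strand): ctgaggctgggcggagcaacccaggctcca
Rps7 (chr12:28635939-28635968, minus strand): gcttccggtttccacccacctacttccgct

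The tract was present at the starts of Rpl35 and Rpl13a, which rose in the cold, and of Rps18, which rose after 6 hours and was lower after 5 days. It was also present at the starts of Rpl13, Rpl14, Rpl28, Rps12, Rps15 and Rps15a, not shown here, which were lower after 5 days. Rpl15, chosen after its values were seen, rose by 0.72 after 6 hours (adjusted p = 0.016, edgeR). Rpl9, Rplp0, Rps4x and Rps7 held none within 20 bases of the annotated start, nor did Rps24 and Rpl38. Among members with a window, the tract was present in 12 of 17 that were higher after 6 hours (70.6%) and 19 of 41 not called (46.3%). It was present in 7 of 9 that were higher after 5 days (77.8%), in 10 of 20 that were lower (50%) and in 15 of 29 not called (51.7%). Whether these shares differ was not tested.

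Counts on the 81 genes made up 2.37% ± 0.19 (SD, n = 5) of nuclear counts in controls, with Gm42418 left out. The 5 control mice had 2.26%, 2.55%, 2.21%, 2.21% and 2.602%. After 6 hours the mice had 2.39%, 2.45%, 2.24%, 2.29% and 2.81%, and after 5 days 1.84%, 1.84%, 1.71%, 1.88% and 2.03%. The 6-hour and 2-day mice overlapped the controls, while every 1-day, 3-day, 4-day and 5-day mouse was below every control. The highest 1-day mouse, at 2.205%, was only just below the lowest control, at 2.211%. The group mean was 2.44% ± 0.23 at 6 hours, 1.96% ± 0.24 at day 1 and 2.08% ± 0.16 at day 2 (SD, n = 5 each). It was then 2.02% ± 0.11, 1.93% ± 0.11 and 1.86% ± 0.12 at days 3, 4 and 5. The ratio of small-subunit to large-subunit and stalk counts was 0.899 ± 0.019 in controls and 0.881 ± 0.019 after 6 hours. From 1 to 5 days it was 0.832 ± 0.031, 0.877 ± 0.039, 0.892 ± 0.017, 0.876 ± 0.031 and 0.848 ± 0.029 (SD, n = 5 each). These shares are a description and were not tested.

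**Figure D1:**
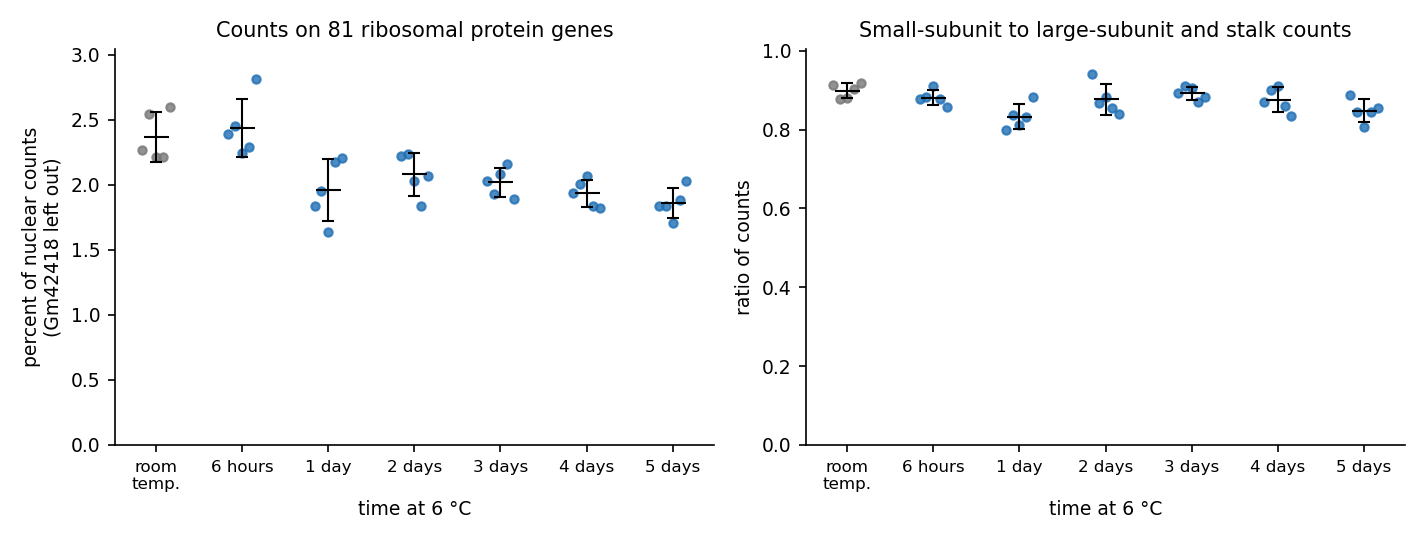
Left, counts on the 81 ribosomal protein genes as a percent of nuclear counts without Gm42418; right, the ratio of small-subunit to large-subunit and stalk counts. Points are mice (grey, room temperature; blue, 6 °C), and lines with bars are the mean ± SD of 5 mice; in the left panel all 5-day mice lie between 1.71% and 2.03%, under the lowest control at 2.21%.

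Mouse 5 of the 6-hour group stood apart, with the highest share of all 35 mice, and 46 of 79 members tested had their highest level of all 35 mice in it. No other mouse was highest for more than 5 members. The share of all genes that were highest in this mouse was not computed, so the 46 cannot be set against a background. In 6-hour mouse 5 the summed level of 7 skeletal muscle markers, 2.97 CPM, was the lowest of its group, whose other mice had 132 to 533 CPM. Its brown adipocyte markers summed to 25866 CPM, the highest of all 35 mice, a sum that includes Ucp1, which rose after 6 hours. That sum therefore does not measure cell content alone. The stromal markers of this mouse summed to 411 CPM, the lowest of its group. In contrast, 3-day mouse 5, with 2.32 CPM of muscle markers, had the lowest share of its group, 1.89%. The part of these cells in the levels was not tested. For comparisons that include the 6-hour group, the numbers of members called and their medians are therefore also given without its mouse 5. Other counts from this group, such as those of gene lists and of groups without overlap, are given only with it.

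Each cold group was compared with the controls, which asked how the mRNA of each ribosomal protein changed with time in the cold. The 6 comparisons share the same 5 control mice, so their counts are not independent. A gene was called where edgeR's quasi-likelihood test gave it an adjusted p, over all genes tested, below 0.05. Rpl10l was at 0 counts in all libraries, and Rpl24 had 11 counts in all, so neither was tested in any comparison. Exons of Gm28037 on the same strand, which was at 0 counts in all libraries, cover 68.8% of the last 400 bases of the transcript Rpl24-201, and how reads in both genes were counted is not given.

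After 6 hours, 21 of 78 members tested rose (26.9%) and none fell. Among all 10593 genes tested 21.8% were higher and 21.1% lower, so the share of members that rose was near the background and the share that fell was not. The median log2 fold change of the members was 0.16, against -0.03 over all genes. DESeq2 called 21 higher and 0 lower. The summed level of 4 endothelial markers was 220 to 269 CPM in controls and 388 to 483 CPM after 6 hours, without overlap, with 2 of 4 higher, and 2 of 5 erythroid markers were higher. Their part in the result was not tested. Of the 21, 13 were large-subunit and 8 small-subunit genes, and no stalk gene was called. Without mouse 5, 16 members were higher, 2 were lower and the median was 0.10. With library size alone in place of TMM factors, 5 were higher and 4 lower and the median was -0.023. That scaling moved the median of all genes to -0.21, and the members lay 0.19 above the median of all genes under both scalings.

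Rpl13a, a large-subunit protein also known from the GAIT complex that represses translation of some inflammatory mRNAs, rose most. Its levels were 8.33, 7.59, 5.67, 5.44 and 6.19 CPM in controls and 12.9, 16.2, 14.6, 17.3 and 21.2 CPM after 6 hours. The groups did not overlap, and the log2 fold change was 1.29 ± 0.18 (SE, adjusted p = 4.6e-06, edgeR).

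Rpl35, a protein at the exit of the peptide tunnel, had 53.8 to 86.2 CPM in controls and 92.5 to 115 CPM after 6 hours, again without overlap between the groups (0.59 ± 0.11 SE, adjusted p = 0.00022, edgeR).

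The most highly counted small-subunit gene, Rps14, which lies at the mRNA platform, went from 529 to 635 CPM in controls to 643 to 760 CPM after 6 hours (log2 fold change 0.27 ± 0.09 SE, adjusted p = 0.019, edgeR). Rpl23a, the most highly counted large-subunit gene and also a tunnel-exit protein, went from 382 to 462 CPM to 509 to 557 CPM (0.30 ± 0.09 SE, adjusted p = 0.0078). Neither call was kept with library size alone, which gave 0.08 for Rps14 and 0.12 for Rpl23a. The call of Rps14 was also lost without control mouse 4. Rplp1, the most highly counted stalk gene, did not pass the test (-0.02 ± 0.10 SE). Other members that rose were, in order of size, Rpl15, Rpl6, Rpl7a, Rps13, Rpl35a, Rpl37, Rps2, Rpl27, Rpl27a, Rps18, Rps28, Rps27, Rpl8, Rpl9, Rpl18 and Rps27l, with log2 fold changes of 0.72 for Rpl15 down to 0.25 for Rps27l. In 14 of the 78 members all 5 cold mice were above all controls, and in 0 all 5 were below. Over all genes tested these shares were 15.5% and 13.0%, so the 14 members (17.9%) were near the background.

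From 1 day on, more members were lower than higher in the edgeR fits, but after 2 days DESeq2 called 9 higher and 9 lower. After 1 day 3 of 79 rose, where 18.9% of all genes were higher, and 18 fell (22.8%), where 17.8% were lower. The share that fell was thus near the background, and the share that rose was below it. The median of the members was -0.15, against -0.02 over all genes. The number that fell was 10 without control mouse 5 and 9 without 1-day mouse 3.

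The largest falls after 1 day were in Rpl30, Rps24 and Rps4x. Rpl30, a protein at the interface of the subunits, had 108, 98.9, 101, 86.4 and 107 CPM in controls and 49.6, 72.6, 60.7, 53.9 and 79.0 CPM after 1 day. The groups did not overlap (log2 fold change -0.67 ± 0.12 SE, adjusted p = 0.00025, edgeR). After 5 days Rpl30 had 73.1 to 89.2 CPM, which reached into the range of the controls (-0.31 ± 0.10 SE, adjusted p = 0.018, edgeR).

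Rps24, which is needed for processing of the small subunit's rRNA, had 208 to 304 CPM in controls and 137 to 213 CPM after 1 day (-0.63 ± 0.13 SE, adjusted p = 0.00087, edgeR), with 4 of 5 cold mice below all controls. Rps4x, an X-linked small-subunit protein, had 21.4 to 30.0 CPM in controls and 12.0 to 18.5 CPM after 1 day (-0.62 ± 0.15 SE, adjusted p = 0.0023, edgeR), without overlap. Rps2, a small-subunit protein near the mRNA entry, rose at the same time by 0.36 ± 0.13 (SE, adjusted p = 0.029, edgeR), a call lost with library size alone and without any of control mice 1 and 4 or 1-day mice 1, 2 and 3.

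After 2 days 8 of 79 members rose (10.1%), where 16.4% of all genes were higher, and 11 fell (13.9%), where 14.6% were lower. Neither share of members was above the background. The median of the members was -0.16, against -0.02 over all genes. With one mouse left out in turn the number higher was 3 to 10 and the number lower 5 to 15.

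Rps19, a small-subunit protein whose human gene is mutated in Diamond-Blackfan anaemia, fell most, by 0.56 on the log2 scale (SE 0.11, adjusted p = 0.0012, edgeR). It had 157, 180, 126, 138 and 152 CPM in controls. After 1 day it had 112, 103, 109, 119 and 111 CPM, and after 5 days 106, 101, 108, 123 and 114 CPM. All mice of both cold groups were below all controls. Rpl38, a large-subunit protein required for translation of some Hox mRNAs, was higher after 2 days by 0.39 ± 0.12 (SE, adjusted p = 0.018, edgeR), a call lost with library size alone and without any of control mice 2, 4 and 5 or 2-day mouse 5.

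After 3 days 10 of 79 members rose (12.7%), where 18.4% of all genes were higher, and 27 fell (34.2%), where 15.5% were lower. After 4 days 10 rose (12.7%) and 30 fell (38.0%), where 19.2% of all genes were higher and 18.8% lower. After 5 days 11 of 78 rose (14.1%) and 29 fell (37.2%), where 20.2% were higher and 18.4% lower. The median of the members was -0.18, -0.20 and -0.18, and that of all genes -0.01, -0.02 and -0.02. The share of members that fell was above the background at each of these times, and the share that rose was below it. Without control mouse 5, 17 members fell after 3 days. With library size alone, which moved the median of all genes to -0.23, -0.24, -0.14, -0.15 and -0.25 from 1 to 5 days, the numbers higher were 2, 2, 5, 5 and 5 and the numbers lower 37, 37, 42, 39 and 44. The members lay 0.13 to 0.18 below the median of all genes under that scaling. The place relative to all genes turned when genes of low count were kept: after 5 days the members' median was -0.14 against -0.31 over 27130 genes without a filter, and -0.17 against -0.34 with DESeq2. After 3 and 4 days it was likewise above that of all genes, by 0.04 and 0.08 without a filter, and after 1 and 2 days by 0.002 and 0.048.

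The falls after 5 days covered both subunits, with 15 of 44 large-subunit, 13 of 31 small-subunit and 1 of 3 stalk genes. In 16 of 78 members all 5-day mice were below all controls (20.5%, against 11.2% of all genes), and in 3 all were above (13.4% of all genes). Markers of other cells differed over the same days. The summed level of 9 macrophage markers was 71.3 to 199.8 CPM in controls and 113 to 478 CPM after 5 days, with 3 of 9 tested higher. The summed level of 5 markers of dividing cells was 4.65 to 7.20 CPM in controls and 11.1 to 41.6 CPM after 5 days, with both of the 2 tested higher. That of 5 erythroid markers was 1826 to 2344 CPM in controls and 2701 to 5005 CPM after 5 days, without overlap, with 3 of 5 higher. Gm42418 took 8.92% to 11.3% of the counts in controls, 11.7% to 15.8% after 2 days and 12.4% to 16.3% after 3 days, without overlap, and 9.44% to 15.3% after 5 days. Their part in the levels of the ribosomal protein genes was not tested.

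**Figure D2:**
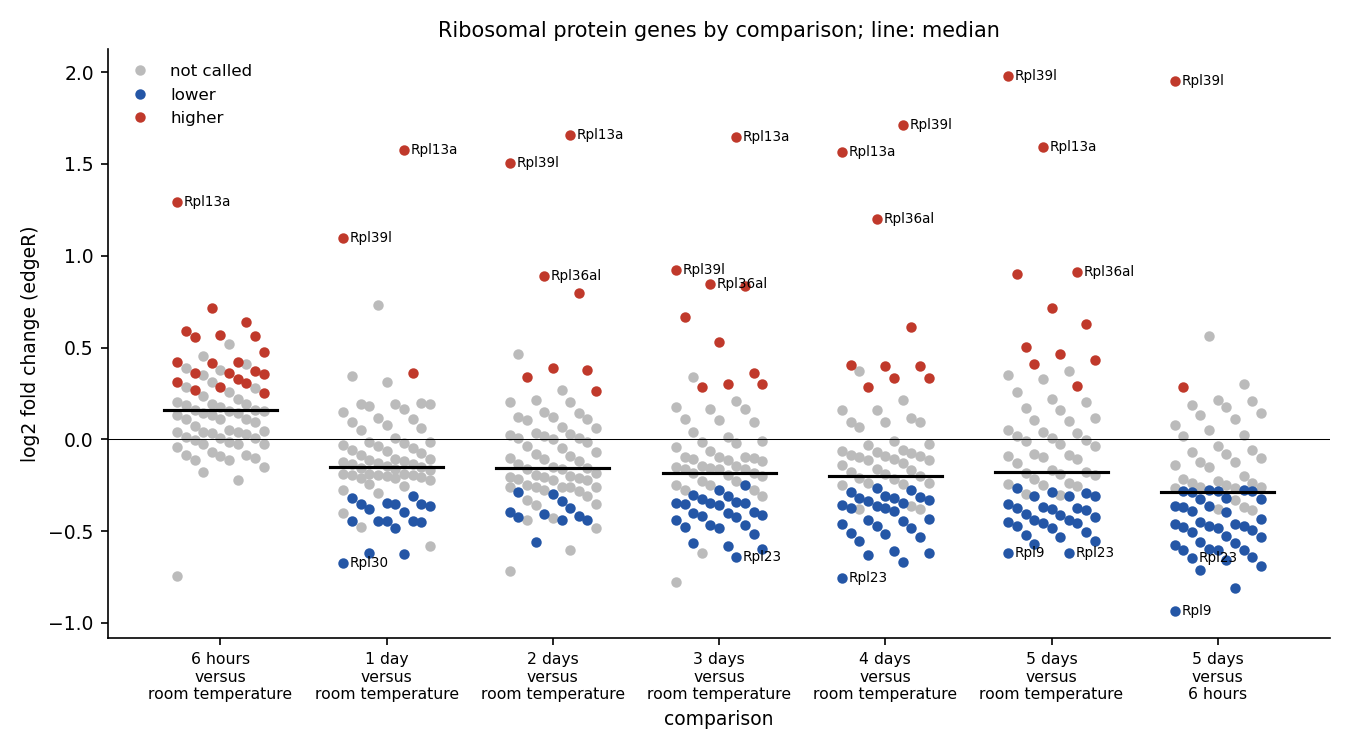
Log2 fold change of each ribosomal protein gene tested (vertical axis) in each of the 7 comparisons (horizontal axis). Points are genes, coloured where edgeR's adjusted p was below 0.05 (red higher, blue lower, grey not called), and black lines are medians, which go from 0.16 after 6 hours to between -0.15 and -0.20 from 1 day on; a few of the most changed genes are named.

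Rpl9, a large-subunit protein near the factor-binding site, fell most after 5 days among members with at least 50 counts on average. It had 129, 130, 120, 115 and 135 CPM in controls, and 81.9, 78.6, 86.5, 81.5 and 81.9 CPM after 5 days. The log2 fold change was -0.62 ± 0.09 (SE, adjusted p = 1.5e-05, edgeR), and the groups did not overlap. All 76-base windows in the last 400 bases of its transcript are shared with other annotated genes, 6 in number, among them Rpl9-ps4, Rpl9-ps6 and Rpl9-ps7, so its level is uncertain to the extent that reads were split among them.

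Rpl23, an intersubunit protein that also binds MDM2, was lower by 0.62 ± 0.20 (SE, adjusted p = 0.027, edgeR) after 5 days. Its control levels were uneven, at 94.7, 171, 72.2, 89.7 and 122 CPM, and 3 of the 5-day mice, which had 62.9 to 79.9 CPM, were below all of them. Without control mouse 2 the log2 fold change was -0.41 and still called, and the call was lost without control mouse 5 or without any of 5-day mice 1, 2 and 3. Rps29, a small-subunit protein that holds a zinc ion, had 387 to 588 CPM in controls and 314 to 367 CPM after 5 days, without overlap (-0.57 ± 0.11 SE, adjusted p = 0.00025, edgeR).

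Other members called lower after 5 days were Rpl13, Rplp2, Rps12, Rpl26, Rpl28, Rps15, Rps20, Rpsa, Rpl36, Rpl14, Rps15a and Rpl37, with log2 fold changes from -0.55 for Rpl13 to -0.27 for Rpl37. Rplp2, the partner of Rplp1 in the stalk dimer, was the stalk gene that was lower (-0.48), and Rpsa, which also occurs as the laminin receptor, was at -0.37. Rpl37 was higher after 6 hours (0.42) and lower after 5 days.

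Other members that fell furthest at 2, 3 or 4 days were Rpl21, Rps7, Rpl31 and Rpl36a. Rpl21, a large-subunit protein, had 60.4 to 84.5 CPM in controls and 41.6 to 50.1 CPM after 4 days, without overlap (-0.61 ± 0.11 SE, adjusted p = 0.00018, edgeR). Its call after 2 days (-0.44, adjusted p = 0.036) was lost with DESeq2 and without any of control mice 1, 2 and 5 or 2-day mice 1 to 4. Rps7, which binds MDM2, had 38.4 to 56.9 CPM in controls and 25.7 to 40.2 CPM after 5 days. Rpl31, at the tunnel exit, had 143 to 173 CPM and 100 to 133 CPM, without overlap, and its largest fall was 0.58 on the log2 scale after 3 days (SE 0.10, adjusted p = 0.00011, edgeR). Rpl36a, at the exit site for tRNA, fell by 0.67 after 4 days (SE 0.12, adjusted p = 0.0001, edgeR).

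Rplp0, the base of the stalk and the gene the study used to normalise its quantitative PCR, passed the test in none of the comparisons with controls. Its levels were 114, 137, 114, 101 and 115 CPM in controls and 95.6, 97.3, 93.7, 109 and 115 CPM after 5 days. The log2 fold changes were 0.13, -0.13, -0.11, -0.16, -0.19 and -0.19 from 6 hours to 5 days, each with an SE of 0.10 to 0.12. With library size alone Rplp0 was called lower after 3, 4 and 5 days, by -0.30, -0.32 and -0.42.

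**Figure D3:**
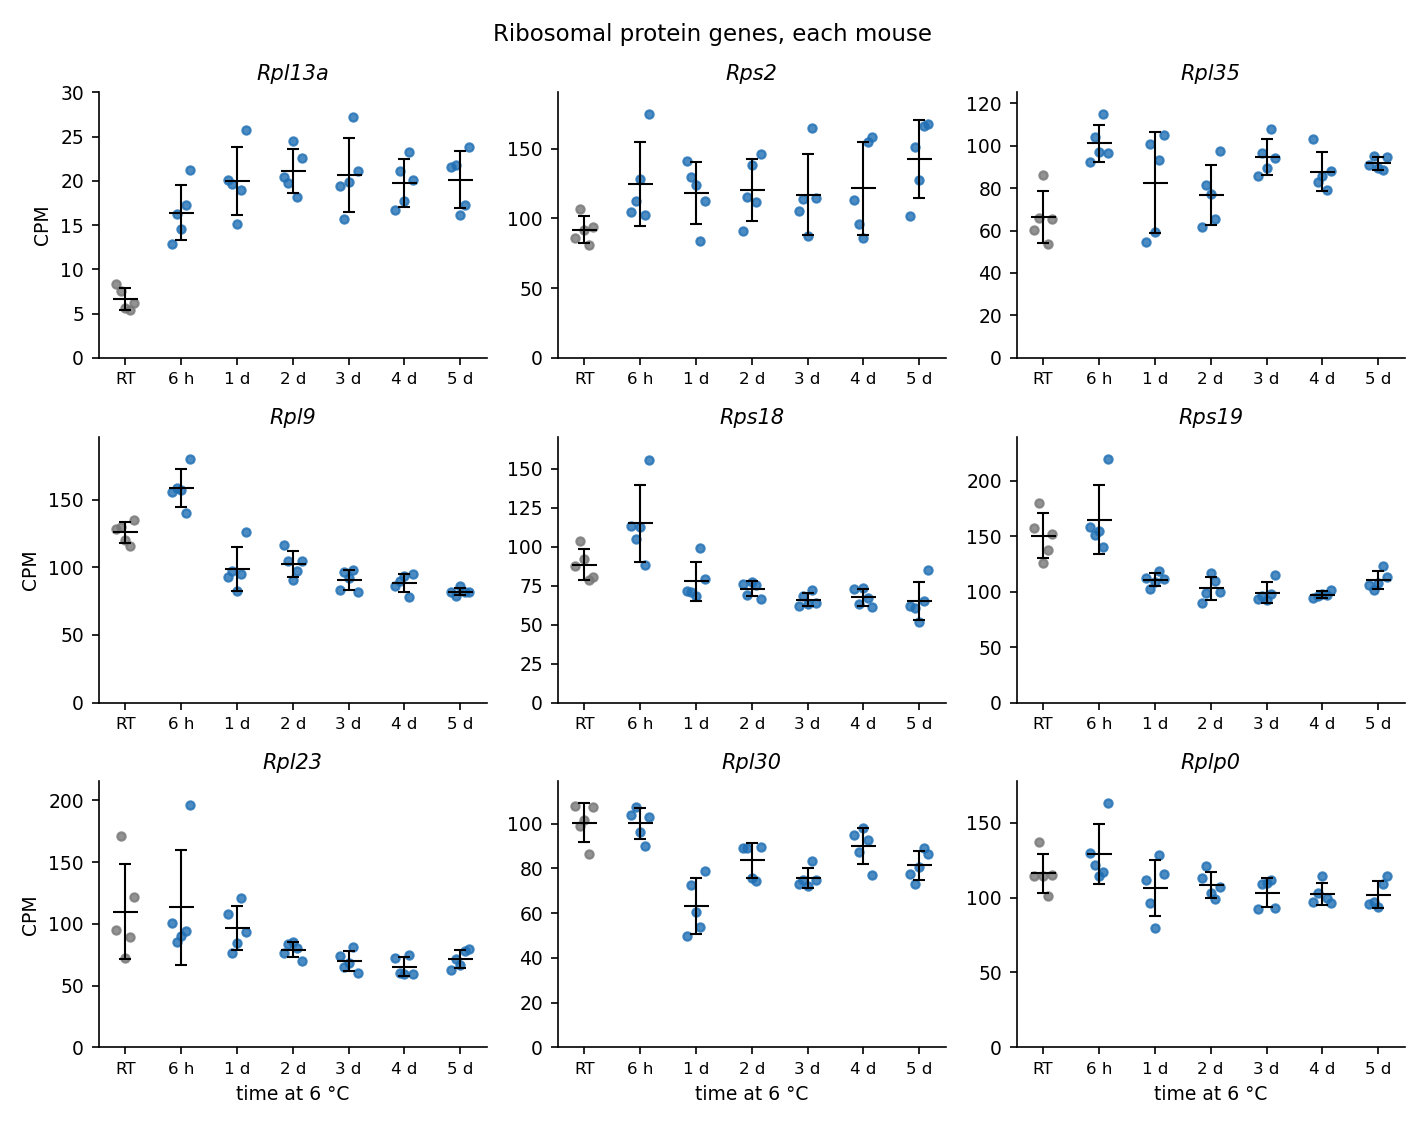
Level in CPM (vertical axis, from 0) of 9 ribosomal protein genes in each mouse by time at 6 °C (RT, room temperature; h, hours; d, days). Points are mice and lines with bars are the mean ± SD of 5 mice; Rpl13a goes from 5.44 to 8.33 CPM in controls to 12.9 CPM or more in every cold mouse, and Rpl9 is above all controls after 6 hours and below all of them after 5 days.

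Against this, Rpl13a remained high at every later time. Its log2 fold changes were 1.58, 1.66, 1.65, 1.57 and 1.59 from 1 to 5 days, with SE 0.17 to 0.18 and adjusted p from 1.8e-07 to 8.4e-07 (edgeR). All 5 mice were above all controls in each group. Leaving out any mouse kept the values between 1.48 and 1.74. After 5 days it had 21.5, 21.8, 16.2, 17.3 and 23.8 CPM.

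Rpl13a has few reads, with 26 to 141 counts per library, and lies at chr7:45125558-45128761 on the minus strand (GRCm38). Exons of another annotated gene on the same strand, Gm45713, cover 9% to 100% of the last 400 bases of its 7 coding transcripts. How reads that lie in both genes were counted is not given. Gm45713 was at 0 counts in all libraries, and the neighbouring gene Flt3l differed by -0.30 after 6 hours (adjusted p = 0.35, edgeR). A change in the position of the 3′ end of Rpl13a was not tested.

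Rps2 reached its largest rise after 5 days, from 81 to 107 CPM in controls to 101 to 168 CPM (0.63 ± 0.13 SE, adjusted p = 0.00035, edgeR), with 4 of 5 mice above all controls. Rpl35 had 88.4 to 95.1 CPM after 5 days, all above the highest control at 86.2 CPM. Rpl23a had 521 to 629 CPM, also above all controls. Of the 3′ windows of Rps2, Rpl35 and Rpl23a, 24.9%, 16.6% and 14.8% are unique, so reads of these genes may have been split with others.

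The direct comparison of 5 days with 6 hours does not use the controls. Of 78 members, 40 were lower after 5 days (51.3%) and 2 higher, where 17.0% of all genes were lower and 19.2% higher. The median of the members was -0.29, against -0.01 over all genes. In 27 members all 5-day mice were below all 6-hour mice (34.6%, against 11.6% of all genes), and in 1 all were above (11.8% of all genes). Without 6-hour mouse 5, 30 members were lower, 2 were higher and the median was -0.22.

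Rpl9, Rps18 and Rpl8 fell most between these times. Rpl9 had 156, 159, 157, 140 and 180 CPM after 6 hours and its log2 fold change was -0.93 ± 0.10 (SE, adjusted p = 2.3e-08, edgeR). Rps18, in the head of the small subunit, had 113, 105, 113, 88.4 and 156 CPM after 6 hours and 62.3, 60.7, 52.0, 65.0 and 85.3 CPM after 5 days (-0.81 ± 0.14 SE, adjusted p = 9.8e-05, edgeR). Rpl8, at the peptidyl transferase centre, had 182 to 228 CPM and 121 to 134 CPM (-0.71 ± 0.10 SE, adjusted p = 1.9e-06, edgeR). None of these groups overlapped.

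Rps13, chosen after its values were seen, had 170 to 207 CPM in controls, 262 to 303 CPM after 6 hours and 177 to 202 CPM after 5 days. It was higher after 6 hours by 0.56 ± 0.09 (SE, adjusted p = 3.3e-05, edgeR). After 5 days it differed from controls by less than its spread between mice. Rpl38 was higher after 5 days than after 6 hours by 0.29 ± 0.10 (SE, adjusted p = 0.026, edgeR), with all 5 mice above, a call lost with library size alone and without any of 6-hour mice 1, 3 and 5 or 5-day mice 3 and 4. Rplp0 was lower by 0.33 (SE 0.11, adjusted p = 0.021, edgeR), a call that was lost without 6-hour mouse 5 (-0.23) and without 5-day mouse 3 (-0.29).

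Several ribosomal proteins have a paralog that is tissue restricted or inducible, and the members of these pairs were compared. Rpl39l, the paralog of the tunnel protein Rpl39 and best known from testis, rose from 1 day on. It had 3.29, 1.95, 2.62, 1.15 and 1.64 CPM in controls, 4.29, 4.35, 5.21, 4.10 and 4.61 CPM after 1 day and 7.11, 2.61, 7.86, 16.7 and 7.39 CPM after 5 days. All 1-day mice and 4 of 5 5-day mice were above all controls. The log2 fold change was 1.10 ± 0.30 (SE, adjusted p = 0.0068) after 1 day and 1.98 ± 0.40 (SE, adjusted p = 0.00095) after 5 days (edgeR), and 1.56 without 5-day mouse 4. These are low levels, at 7 to 17 counts per control library and 12 to 85 after 5 days. Rpl39 had a log2 fold change of -0.04 ± 0.16 (SE, adjusted p = 0.87) after 5 days.

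Across the 35 mice the log2 level of Rpl39l, with 0.5 CPM added, varied with that of the 5 markers of dividing cells (Pearson r = 0.54, Spearman rho = 0.57, permutation p = 0.00094 and 0.00051, adjusted over the 2 relations computed 0.00094 and 0.00051). Without the 2 mice farthest from the median marker level r was 0.51. Within groups, after each group's mean was taken off, r was 0.13, so the relation did not hold between mice of a group. The permutations shuffled mice across groups, so their p-values also reflect differences between groups. After 1 day, when Rpl39l was above all controls, the markers summed to 1.80 to 7.18 CPM, against 4.65 to 7.20 CPM in controls.

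Rpl36al, the paralog of Rpl36a, had 2.52 to 3.79 CPM in controls and was called higher from 2 days on, with log2 fold changes of 0.89, 0.85, 1.20 and 0.91 (adjusted p = 0.015, 0.012, 0.00022 and 0.014, edgeR), while Rpl36a was lower after 5 days by 0.52 (SE 0.13, adjusted p = 0.0021). Exons of Gm49383 on the same strand cover 74.2% to 76.8% of the last 400 bases of the Rpl36al transcripts. Gm49383 was at 0 counts in all libraries, and how reads in both genes were counted is not given. The 5-day call was lost without 5-day mouse 4 (0.70) and with library size alone (0.68). None of the 3′ windows of Rpl36a are unique, so reads may have been split with its pseudogenes. Rps27l, a paralog induced by P53, rose after 6 hours (0.25 ± 0.10 SE, adjusted p = 0.048), a call lost with library size alone and without any of control mice 2, 4 and 5 or 6-hour mice 1 to 4. It was also higher after 5 days (0.43 ± 0.12 SE, adjusted p = 0.0052), a call lost with library size alone (0.20). Rps27, of whose 3′ windows 1.48% are unique, rose after 6 hours by 0.36 ± 0.10 (SE, adjusted p = 0.0062), a call lost with library size alone (0.17), and had a log2 fold change of -0.25 ± 0.12 (SE, adjusted p = 0.099) after 5 days.

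Rpl22l1, a paralog of Rpl22 outside the symbol rule, had 19.6, 11.1, 13.1, 15.5 and 11.3 CPM in controls and 20.2, 20.5, 21.0, 27.6 and 29.6 CPM after 5 days, without overlap (0.75 ± 0.17 SE, adjusted p = 0.0011, edgeR). Rpl22, an RNA-binding large-subunit protein, fell by 0.31 on the log2 scale (SE 0.10, adjusted p = 0.022), a call lost without control mouse 2 or 5 or 5-day mouse 1. Rpl7l1, a paralog of Rpl7 that acts in ribosome assembly, had 37.6, 29.8, 36.9, 26.1 and 25.7 CPM in controls and 60.4, 66.7, 67.9, 59.8 and 60.6 CPM after 6 hours (1.00 ± 0.12 SE, adjusted p = 4.3e-07, edgeR). Rpl7l1 was at 0.46 ± 0.14 (SE, adjusted p = 0.014) after 5 days, a call lost without control mouse 4 and with library size alone, when Rpl7 was lower by 0.47 (SE 0.10, adjusted p = 0.00083). Whether a paralog changed differently from its partner was not tested.

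**Figure D4:**
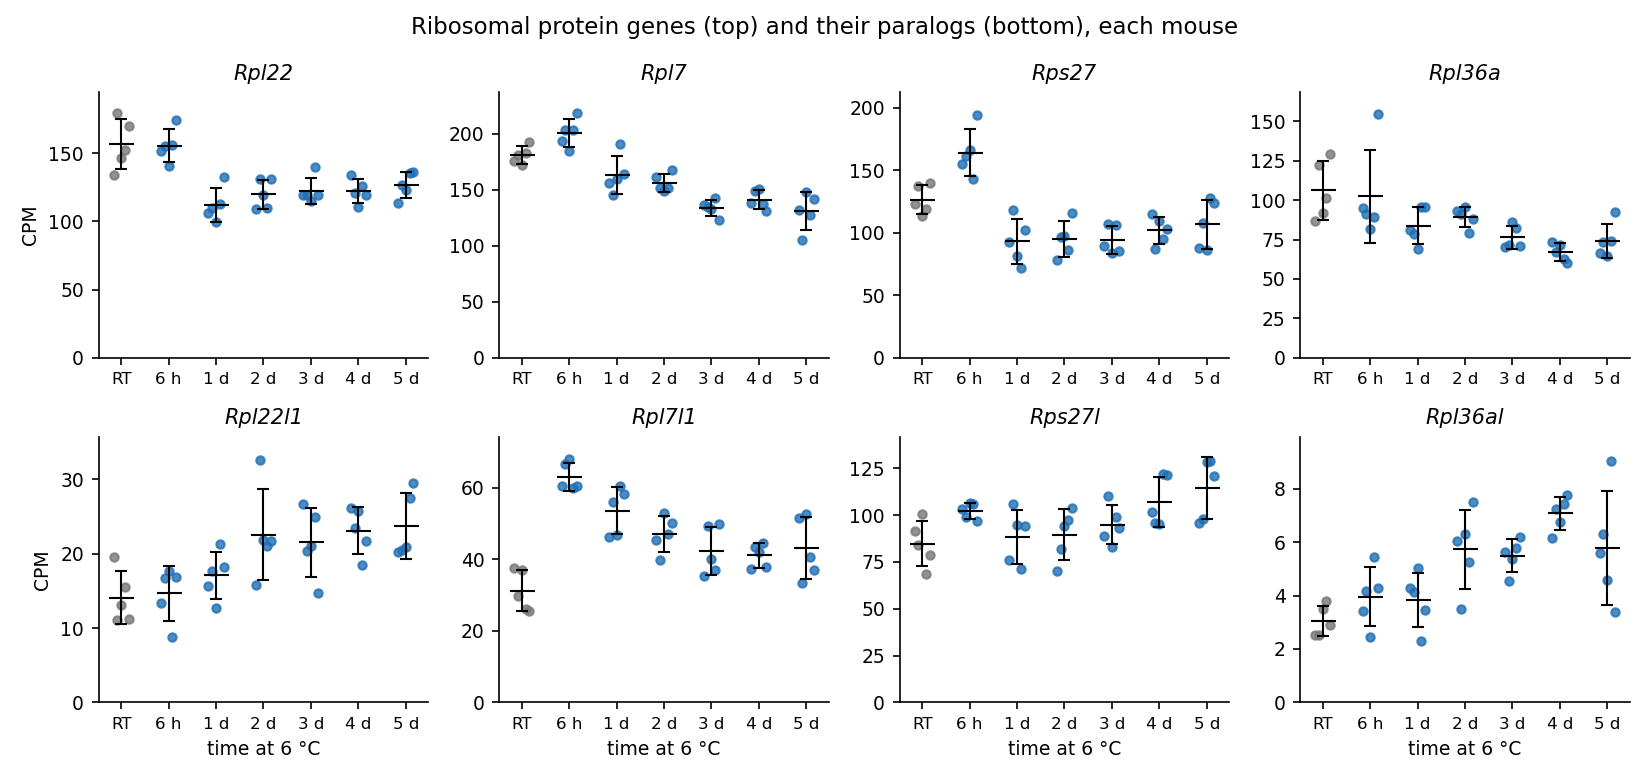
Level in CPM (vertical axes, each from 0) of 4 ribosomal protein genes (top) and their paralogs (bottom) in each mouse by time at 6 °C (RT, room temperature; h, hours; d, days). Points are mice and lines with bars are the mean ± SD of 5 mice; Rpl7l1 is highest after 6 hours at 59.8 to 67.9 CPM, and Rpl22l1 and Rpl36al are higher at the later times while Rpl22 and Rpl36a are lower.

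Rpl3l, the paralog of Rpl3 made in heart and skeletal muscle, had 0 to 24 counts per library and passed the test in no comparison in which it was tested. Its log2 level followed that of the 7 skeletal muscle markers across the 35 mice (Pearson r = 0.74, Spearman rho = 0.79, permutation p = 1e-05 for each, the smallest the permutations can give, adjusted 2e-05). Without the 2 farthest mice r was 0.71, and within groups it was 0.76. The muscle markers summed to 63.7 to 876 CPM in controls. Rps4l, annotated as a processed pseudogene, rose after 6 hours by 0.73 (adjusted p = 8.1e-05) and after 5 days by 0.67 (adjusted p = 0.018). The 5-day call was lost with library size alone (0.44) and nuclear library size alone (0.50), and 4 of the 5-day mice were above all controls and 1 below all of them. Rps4x was lower after 5 days by 0.53 (SE 0.18, adjusted p = 0.021), a call lost without control mouse 2 or without 5-day mouse 1 or 3. Rpl3 and Rpl10 passed the test neither after 6 hours (0.03 and 0.24) nor after 5 days (-0.30 and -0.03).

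Of the ribosomal proteins that the symbol rule misses, Rack1, a scaffold on the small subunit, rose after 6 hours by 0.46 ± 0.10 (SE, adjusted p = 0.00083, edgeR) and was at -0.04 ± 0.11 after 5 days (SE, adjusted p = 0.83). Fau, which encodes a small-subunit protein fused to a ubiquitin-like part, had 69.8 to 109 CPM in controls and 62.5 to 65.7 CPM after 5 days, without overlap (-0.52 ± 0.11 SE, adjusted p = 0.00075). Rps3a1, the gene of a small-subunit protein and chosen after its values were seen, had 38.2 to 59.8 CPM in controls and 22.8 to 35.5 CPM after 5 days (-0.71 ± 0.14 SE, adjusted p = 0.00044), also without overlap.

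The other genes of the pathway were read from lists of known factors, against all genes tested, of which 21.8% were higher and 21.1% lower after 6 hours and 20.2% and 18.4% after 5 days. Of 44 ribosome assembly and rRNA modification factors, 30 rose (68.2%) and 2 fell after 6 hours, with a median of 0.61, and 13 rose (29.5%) and 1 fell after 5 days, with a median of 0.24. The largest rises after 6 hours were in Bysl, needed for small-subunit maturation (1.42, adjusted p = 9.0e-08), and Nop2, an rRNA methyltransferase (1.29, adjusted p = 7.3e-07). Bysl and Rrp9, a U3 snoRNP protein, were the largest after 5 days, at 1.20 and 1.17 (adjusted p = 3.1e-06 and 0.00022).

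Of 19 genes of rRNA synthesis tested, 8 rose and 1 fell after 6 hours, with a median of 0.30. Polr1a, the catalytic subunit of RNA polymerase I, rose by 0.97 (adjusted p = 5.5e-06, edgeR), and Polr1e by 0.97 at 12 counts on average (adjusted p = 0.044, edgeR). The call of Polr1e was lost with DESeq2, library size alone, nuclear library size alone and no filter. It was also lost without any of control mice 1, 3, 4 and 5 or 6-hour mice 2 and 3. After 5 days 1 of 18 rose, Polr1d, by 1.01 (adjusted p = 1.4e-07), and none fell. After 6 hours the share that rose (42.1%) was thus above the background of all genes, and the share that fell (5.26%) was below it. After 5 days the share that rose (5.56%) and the share that fell (0%) were both below it.

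Of 34 initiation factors, 19 rose (55.9%) and 2 fell (5.88%) after 6 hours and 16 rose (47.1%) and 3 fell (8.82%) after 5 days. The shares that rose were above the background and the shares that fell below it. Eif2b3 of the eIF2B exchange factor and Eif1a, which acts in scanning, rose most after 6 hours, by 1.20 and 1.19 (adjusted p = 6.5e-08 and 2.2e-08). Eif1a and Eif2b2 rose most after 5 days, by 1.58 and 1.09 (adjusted p = 5.2e-09 and 4.4e-06). Of 8 elongation factors, 4 rose (50%) after 6 hours, and 3 rose (37.5%) and 2 fell (25%) after 5 days, shares that rest on few genes. Eif5a, which helps join difficult residues, rose at both times by 0.59 and 0.85 (adjusted p = 0.00012 and 1.6e-06, edgeR). Eef1e1, a factor of the tRNA synthetase complex, rose by 1.04 and 0.73 (adjusted p = 0.0008 and 0.048, edgeR). The second call was lost with DESeq2, library size alone, nuclear library size alone and the replicate number as a block. It was also lost without any of control mice 1, 3, 4 and 5 or 5-day mice 1, 4 and 5.

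Of 19 other mRNAs known for a TOP tract, 5 rose (26.3%) and 3 fell (15.8%) after 6 hours, and 1 rose (5.26%) and 5 fell (26.3%) after 5 days, with medians of 0.11 and -0.06. Apart from the share that rose after 5 days, these were near the background. Vim, which encodes vimentin, fell by 1.00 after 6 hours and by 0.59 after 5 days (adjusted p = 1.6e-08 and 0.016, the second call lost without 5-day mouse 1). Snhg1, a snoRNA host gene, rose by 0.59 after 6 hours (adjusted p = 0.003), and Nap1l1, a histone chaperone, fell by 0.66 after 5 days (adjusted p = 6.2e-05). The 7 members of the stalk and the 5S and GTPase-centre region held no call after 6 hours and 1 lower after 5 days.

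**Figure D5:**
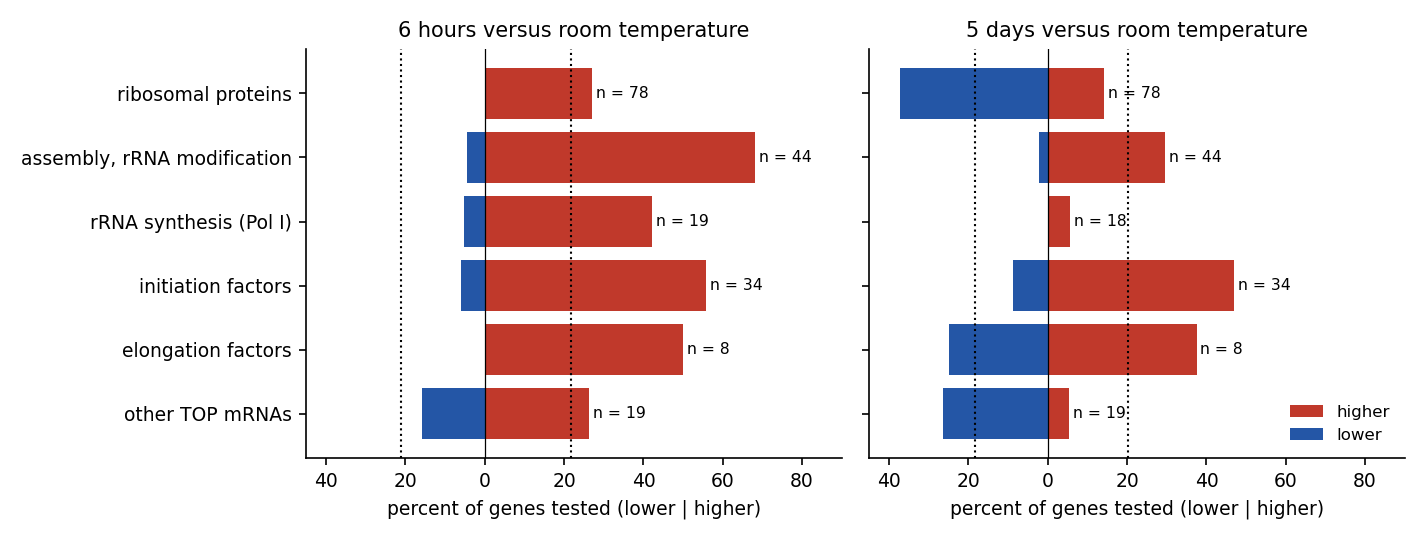
Percent of the genes tested in each list (n beside the bars) that edgeR called higher (red, to the right) or lower (blue, to the left) after 6 hours and after 5 days in the cold. Dotted lines are the percents of all genes called higher (21.8 and 20.2) and lower (21.1 and 18.4); ribosomal protein genes lie near the dotted line for higher after 6 hours and beyond the one for lower after 5 days.

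Among 21 tested genes that control ribosome production, 7 rose (33.3%) and 5 fell (23.8%) after 6 hours, and 6 rose (28.6%) and 3 fell (14.3%) after 5 days, where the shares that fell were near the background. Pdcd4, an inhibitor of eIF4A, fell by 2.37 after 6 hours (adjusted p = 3.3e-11), and Eif4ebp1, which holds eIF4E, by 1.57 (adjusted p = 3.2e-09). After 5 days Mtor, the kinase of mTORC1, and Deptor, its inhibitor, both rose by 1.44 (adjusted p = 4.3e-09 and 2.5e-07). Of 9 tested genes of ribosomal protein transport and P53 surveillance, 5 rose (55.6%) and 1 fell (11.1%) after 6 hours and 3 rose (33.3%) after 5 days. Cdkn1a, a P53 target that halts the cell cycle, rose by 3.72 and 2.37 (adjusted p = 1.2e-08 and 3.1e-05), Bccip by 0.85 after 6 hours (adjusted p = 8.1e-05), and Ipo9, an importin that carries ribosomal proteins, by 0.71 after 5 days (adjusted p = 9.4e-05).

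The members differ in how far their reads can be told from those of processed pseudogenes, which are numerous for these genes. In 46 members at least 50% of the 76-base windows of the last 400 bases were unique among annotated transcripts, and in 35 fewer were. Rpl15 (15.7% unique) and Rps13 (14.8%), which rose after 6 hours, were among the 35. After 6 hours 9 of 44 tested members of the first kind (20.45%) and 12 of 34 of the second (35.3%) were higher, where 21.8% of all genes were. Their median log2 fold changes were 0.11 and 0.30. After 5 days 17 of 44 (38.6%) and 12 of 34 (35.3%) were lower, where 18.4% of all genes were, and both medians were -0.18. The 283 annotated pseudogenes of these genes whose symbols carry -ps held 0.0047% of all counts, against 1.01% on the members. Pseudogenes with other names, which share windows with many members, are not in that sum. How reads that match several genes were handled is not given, so the sum does not show how many reads are shared.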

How the data were processed

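QuantSeq 3′ mRNA libraries of 35 mice were used. The authors deposited raw counts per Ensembl gene; per the labels, reads were aligned with STAR 2.6.1d to GRCm38 and counted with HTSeq 0.11.2 over Ensembl genes. How reads in overlapping genes were treated is not given in the sources used here. Symbols came from GENCODE M21 (267 IDs had none). Members and gene lists were chosen with earlier results of these data known. Each comparison was fitted with edgeR 4.0.16 over the 10 mice concerned (TMM factors, filterByExpr, robust quasi-likelihood fit), with Benjamini-Hochberg adjustment over all genes tested and a threshold of 0.05. Levels are CPM with TMM factors over all 35 libraries. The fits were tested on simulated data. Genes named were Rplp0, the 3 largest rises and falls per comparison among called members averaging at least 50 counts, paralog pairs, the most counted member of each subunit, and in other lists the 2 largest changes after 6 hours and 5 days. Alternatives were DESeq2 1.42.0, other scalings, no filter, 1 fit over all groups, the replicate number as a block, and each mouse left out. The chi-square per gene between mice of 1 group was at least 4.62, where sampling noise alone gives about 1, so none was counted as a duplicate. The numbers of mice name different animals. Some members that the rule names are not reported here.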

Additional observations from a re-analysis of the deposited data

Results flagged for a closer look

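In the 6-hour group, mouse 5 was set apart from the other 4 mice in 7 of the named genes, by a gap larger than Dixon's limit for 5 values: 31.0 CPM for Rpl10, 196 for Rpl23, 88.6 for Rpl3, 154 for Rpl36a, 219.8 for Rps19, 595 for Rps29 and 83.4 for Rps7. Another 12 values stood apart in the same way. They were Rpl39 in control mouse 3 (89.0 CPM), Rpl23a in 1-day mouse 1 (441 CPM), Rpl3 in 1-day mouse 3 (41.5 CPM) and Rps7 in 2-day mouse 5 (42.5 CPM). In the 3-day group they were Rpl21, Rpl22 and Rpl30 in mouse 4 (68.2, 139 and 83.1 CPM), Rps29 and Rps4x in mouse 2 (384 and 13.4 CPM) and Rps19 in mouse 5 (115 CPM), and in the 4-day group Rpl21 in mouse 2 (41.6 CPM) and Rpl3l in mouse 5 (4.34 CPM). In all, 19 of 224 groups of 5 values held such a mouse, where chance gives about 1 in 20.

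Among 32 named members, 19 differed between 5 days and 6 hours in the direct edgeR comparison of those groups. Rpl39l and Rpl38 were higher after 5 days, by 1.95 and 0.29 on the log2 scale. The large-subunit genes that were lower had log2 fold changes of -0.93 for Rpl9, -0.71 for Rpl8, -0.64 for Rpl23, -0.60 for Rpl7, -0.45 for Rpl36a, -0.32 for Rpl31, -0.28 for Rpl30 and -0.28 for Rpl22, with -0.33 for Rplp0 of the stalk. The small-subunit genes had -0.81 for Rps18, -0.66 for Rps7, -0.64 for Rps4x, -0.60 for Rps27, -0.57 for Rps19, -0.51 for Rps14, -0.39 for Rps29 and -0.29 for Rps24.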

How the results depend on the processing

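With library size alone in place of TMM factors, 5 members were higher and 4 lower after 6 hours (median -0.023), 37 were lower after 1 day (-0.36), 2 higher and 37 lower after 2 days (-0.37), 5 higher and 42 lower after 3 days (-0.32), 5 higher after 4 days (-0.33), 5 higher and 44 lower after 5 days (-0.41), and 1 higher between 6 hours and 5 days. With nuclear library size alone, 11 were higher and 1 lower after 6 hours, 30 lower after 1 day (-0.28), 4 higher and 28 lower after 2 days (-0.27), 5 higher after 4 days (-0.32) and 1 higher between 6 hours and 5 days, with a median of -0.35 after 5 days. Without a filter 1 was higher between 6 hours and 5 days. As a percent of all counts, the members' shares were 1.19 in controls and 1.16, 0.931, 0.971, 0.968, 0.963 and 0.898 from 6 hours to 5 days. The cause of these shifts was not tested. DESeq2, RLE factors, TMM factors without the members and 1 fit of all groups kept these counts within 1.5 times. No named gene that was called turned its direction under any alternative run.

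With each mouse left out in turn, 15 to 24 members were higher and 0 to 2 lower after 6 hours (median 0.10 to 0.21), 2 to 4 and 9 to 20 after 1 day (-0.20 to -0.08), 3 to 10 and 5 to 15 after 2 days (-0.19 to -0.09), 5 to 9 and 17 to 30 after 3 days (-0.22 to -0.15), 6 to 10 and 25 to 32 after 4 days (-0.25 to -0.16), 9 to 12 and 21 to 31 after 5 days (-0.22 to -0.14), and 1 to 2 and 27 to 42 between 6 hours and 5 days (-0.35 to -0.22). The shares, in an alternative chosen after seeing the data, were 2.31% to 2.41% in controls, and 2.34% to 2.49%, 1.90% to 2.04%, 2.04% to 2.14%, 1.98% to 2.05%, 1.90% to 1.96% and 1.82% to 1.90% from 6 hours to 5 days. After 2 days the number lower was 7, 6, 5 and 7 without control mouse 2, control mouse 5, 2-day mouse 3 and 2-day mouse 4.

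Replicate numbers named different mice, whose deviations correlated by -0.19 to 0.14 between same-numbered mice. With the number as a block, 6 members were higher and 20 lower after 3 days, and the other counts stayed within 1.5 times. Rpl3l had at most 24 counts in a library and Rpl24 11 in all.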
